A study of Mus musculus with 6 samples.

Results

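The genes described here are the 4 TEAD transcription factor genes, *Tead1*, *Tead2*, *Tead3* and *Tead4*, and 4 genes of the Hippo pathway, *Yap1*, *Wwtr1*, *Amotl2* and *Lats2*, in ATAC-seq peak lists of neural stem cell cultures. ATAC-seq marks open chromatin, because a transposase cuts and tags DNA where it is accessible. Peaks of the 6 libraries that overlapped by at least 1 bp were merged into regions, and a region was counted to a gene when it overlapped the gene body or 50 kb on either side of it. This rule took 112 of 119719 merged regions, 28 at *Tead1*, 8 at *Tead2*, 9 at *Tead3*, 16 at *Tead4*, 17 at *Yap1*, 11 at *Wwtr1*, 10 at *Amotl2* and 13 at *Lats2*. They are numbered along the chromosome within each gene, on the GRCm38 build. No region belonged to more than 1 of these genes.

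The cultures came from the subependymal zone (SEZ) of 10-week-old mice in which *Srr2*, an enhancer of *Sox2*, had been deleted with CRISPR-Cas9 (Srr2 del/del). Proliferating cells (PROLIF) had been kept for 2 days in vitro (DIV) with mitogen, and early differentiating cells (DIFF) were harvested 1 day after the mitogens were withdrawn and 2% foetal bovine serum was added. Each state had 3 libraries, replicates 1, 2 and 4. Both states carried the deletion, wild-type libraries were not analysed here, and the loss of mitogens and the addition of serum cannot be told apart. The sources differ on how the PROLIF cells were grown, as neurospheres or as cells plated on Matrigel, and on their time in culture (2 DIV in the sample labels, 3 DIV in the series text). A difference in attachment or time between the states, if there was any, cannot be told apart either. The labels do not say from which founder line of the deletion the cultures were derived.

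In the Hippo pathway, a chain of kinases ending in LATS1 and LATS2 phosphorylates the coactivators YAP (from *Yap1*) and TAZ (from *Wwtr1*), which keeps them out of the nucleus. Unphosphorylated YAP and TAZ enter the nucleus and bind TEAD proteins, which contact DNA and switch on genes of growth and adhesion. Angiomotin proteins, among them AMOTL2, hold YAP at cell junctions and in the cytoplasm, and *Lats2* and *Amotl2* are themselves known targets of YAP in other cells. In neural progenitors the pathway is known as a brake on proliferation.

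The regions on which the results below turn are shown as 121 bases centred on the summit of their best-ranked peak, read 5′ to 3′ from the plus strand of GRCm38 (RefSeq sequence). Capitals mark matches to ACATTCCA, the longer TEAD motif, to its core GGAATG, to the AP-1 motif TGAGTCA and to the SOX motifs ACAATG and ACAAAG, on either strand, so that CATTCC stands for GGAATG on the minus strand and CTTTGT for ACAAAG. The first 3 are the regions that differed most firmly between the states, at *Tead1* (chr7:112760883-112761003), *Tead3* (chr17:28341160-28341280) and *Lats2* (chr14:57702013-57702133).
Tead1 region 10: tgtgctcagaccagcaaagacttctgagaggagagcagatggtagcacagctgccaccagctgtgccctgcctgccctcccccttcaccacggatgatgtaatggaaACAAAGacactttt
Tead3 region 6: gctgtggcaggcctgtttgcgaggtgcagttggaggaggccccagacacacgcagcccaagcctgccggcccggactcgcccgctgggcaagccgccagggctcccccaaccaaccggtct
Lats2 region 5: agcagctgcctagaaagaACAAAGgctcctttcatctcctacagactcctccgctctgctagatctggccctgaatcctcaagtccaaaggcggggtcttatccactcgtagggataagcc
The next 3 hold a TEAD core near the start of transcription. They are the *Yap1* promoter (chr9:8004674-8004794), a *Lats2* promoter inside the gene (chr14:57746047-57746167) and a region of *Lats2* with the longer motif (chr14:57736358-57736478). The last of these had a peak in every PROLIF library and in 1 DIFF library.
Yap1 region 15: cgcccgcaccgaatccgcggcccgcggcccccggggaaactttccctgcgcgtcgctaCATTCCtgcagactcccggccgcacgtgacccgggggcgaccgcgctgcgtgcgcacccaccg
Lats2 region 10: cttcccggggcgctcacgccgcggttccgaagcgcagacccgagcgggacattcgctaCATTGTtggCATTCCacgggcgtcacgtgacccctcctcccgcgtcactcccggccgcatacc
Lats2 region 9: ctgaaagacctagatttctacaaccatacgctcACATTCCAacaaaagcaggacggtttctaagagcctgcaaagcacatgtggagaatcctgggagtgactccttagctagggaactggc
The last 3 are the region just upstream of *Lats2* that had peaks in DIFF alone (chr14:57760631-57760751), a *Tead1* region that was higher in PROLIF (chr7:112842079-112842199) and the strongest promoter region of the 8 genes, in *Amotl2* (chr9:102724151-102724271).
Lats2 region 12: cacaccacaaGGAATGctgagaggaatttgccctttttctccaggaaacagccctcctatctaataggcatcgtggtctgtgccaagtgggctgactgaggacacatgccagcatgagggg
Tead1 region 20: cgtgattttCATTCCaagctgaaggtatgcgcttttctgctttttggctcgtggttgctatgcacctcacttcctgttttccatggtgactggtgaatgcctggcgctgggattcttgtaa
Amotl2 region 5: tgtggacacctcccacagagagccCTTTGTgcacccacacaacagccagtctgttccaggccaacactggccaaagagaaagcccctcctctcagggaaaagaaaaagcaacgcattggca

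The lists held 60006 to 88039 peaks, and of these 71 to 96 per library lay in the windows of the 8 genes. The background pileup under the peaks, which follows depth, was 2.85 to 3.63 reads in 5 libraries and 6.01 reads in DIFF replicate 4, so that this library could show weaker peaks. All 7 neural stem and progenitor markers examined (*Sox2*, *Nes*, *Pax6*, *Vim*, *Fabp7*, *Slc1a3* and *Olig2*) had a promoter peak in every library. Of 5 markers each, 1 to 2 of microglia and 1 to 2 of mural cells and fibroblasts had a promoter peak in a library, with summed percentiles of 26.3 to 80.3 in PROLIF and 65.1 to 104 in DIFF for microglia and of 51.4 to 73.9 and 51.4 to 88.9 for mural cells and fibroblasts. For endothelium, 2 of 5 had one in PROLIF (summed percentiles 109 to 127) and 1 of 5 in DIFF (58.0 to 72.0), and *Cdh5*, *Cldn5* and *Tek* had none in any library, as was the case for *Cx3cr1*, *Ptprc* and *Itgam* of microglia and *Col1a2* and *Lum* of fibroblasts. Their part in the results below was not tested, and in a bulk sample a smaller share of cells with an open site and a less open site in each cell cannot be told apart.

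All 8 genes had a promoter peak in every library of both states, and just under 50% of the regions in their windows were shared by all 6 libraries. These genes have 2 to 16 start sites each. The share of all protein-coding genes with a promoter peak in every library was not worked out, so the promoter count cannot be set against it. Of the 112 regions, 53 (47.3%) had a peak in all 6 libraries, against 33.5% of all merged regions. A peak in all 3 PROLIF and no DIFF library was found for 3 regions (2.68%, against 1.79% of all regions), and a peak in all 3 DIFF and no PROLIF library for another 3 (2.68%, against 3.48%). The remaining 53 regions had peaks in other combinations of libraries, and 19 of them (17.0% of the 112, against 29.6% of all regions) rested on 1 library. The shares of regions found in 1 state alone were thus close to those over the genome. The number found in DIFF alone was 5, 8 and 7 when PROLIF replicate 1, DIFF replicate 1 and DIFF replicate 2 were left out in turn. A missing peak is a signal below the threshold of the peak caller in that library and does not show that the site was closed.

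**Figure D1:**
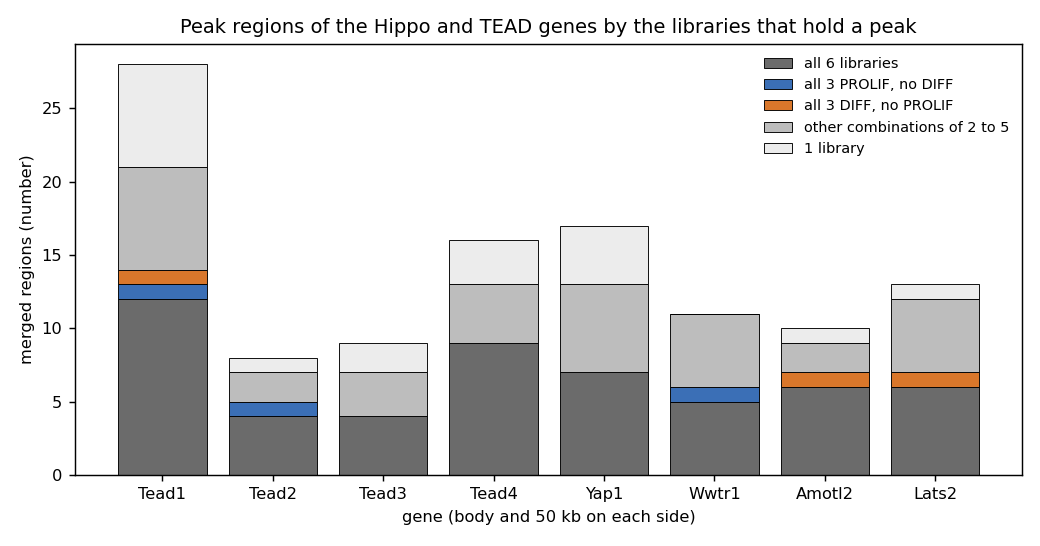
Number of merged regions at each gene, split by the libraries that hold a peak. Dark grey is all 6 libraries, blue all 3 PROLIF and no DIFF library, orange all 3 DIFF and no PROLIF library, mid grey the other combinations of 2 to 5 libraries and light grey a single library. *Tead1* has 28 regions, of which 12 are shared by all 6 libraries, and *Tead2*, *Tead3* and *Tead4* have 4, 4 and 9 shared regions.

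By position, 22 of the 112 regions were promoter regions of the gene itself (3 kb or less from any of its start sites), 40 lay in its introns, 3 in its exons, 22 upstream and 25 downstream. Of the 22 promoter regions, 14 had a peak in every library. Regions within 3 kb of any protein-coding start site made up 30.4% of the 112, against 22.4% of all regions, and the median width was 468 bp, against 322 bp.

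To compare the states within shared regions, the fold enrichment of each peak over its local background was put on the log2 scale, quantile-normalised and tested with limma over the 40102 regions found in all 6 libraries. Of the 53 shared regions of the 8 genes, 5 were higher in DIFF (9.43%, against 6.92% of all tested) and 3 were higher in PROLIF (5.66%, against 8.9%), at a Benjamini-Hochberg adjusted p under 0.05. The difference, DIFF minus PROLIF, was positive in 35 and negative in 18 of the 53 regions, with a log2 median of 0.14. Over all 40102 tested regions it was positive in 21805 and negative in 18297, with a median of 0.03. In the wider list of pathway genes described below, it was positive in 87 and negative in 40 of the 127 shared regions. The 5 regions higher in DIFF lay at *Lats2*, which had 2, and at *Tead3*, *Yap1* and *Tead2*, and the 3 higher in PROLIF lay at *Tead1*, which had 2, and at *Amotl2*. The number higher in PROLIF was 1 without PROLIF replicate 4 and also 1 without DIFF replicate 1, and the number higher in DIFF was 3 without DIFF replicate 2 and 2 without DIFF replicate 4. Region 10 of *Tead1*, region 6 of *Tead3* and region 5 of *Lats2* passed the test with each library left out in turn. Without normalisation 2 regions were higher in DIFF and 3 in PROLIF, and 27.7% of all calls over the tested regions were higher in DIFF, against 43.7% with it. Each of the 8 genes had a single shared region with its summit under 1 kb from a start site of that gene, and none passed the test. With so few regions, and 6.92% and 8.9% of all tested regions past it, this does not set them apart.

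**Figure D2:**
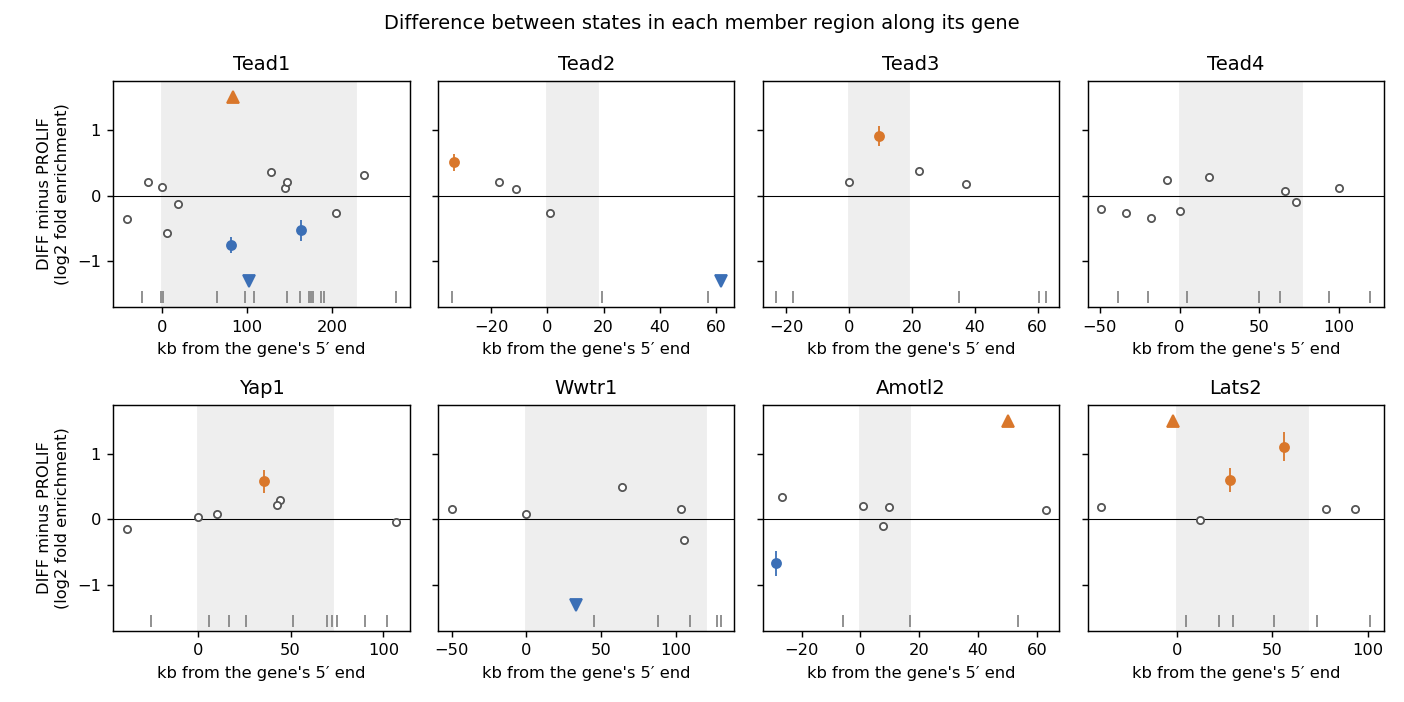
Each panel is 1 gene, with the distance of a region's summit from the gene's 5′ end in kb on the horizontal axis (gene body shaded) and DIFF minus PROLIF in log2 fold enrichment on the vertical axis. Filled points with standard errors passed the test (orange higher in DIFF, blue higher in PROLIF), open circles did not, triangles are regions found in DIFF alone (orange, pointing up) or in PROLIF alone (blue, pointing down) and carry no difference, and grey ticks are regions with peaks in other combinations of libraries. The shared regions at the 5′ ends lie between -0.27 and 0.21, and *Lats2* has no shared region there.

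*Tead1* (ENSMUSG00000055320.17, chr7:112679318-112906807, plus strand) had the most regions, some of them higher or found alone in PROLIF and some found alone in DIFF. Region 10 (chr7:112760515-112761253) lay 1.40 kb downstream of a start site inside the gene and had fold enrichments of 14.4, 11.2 and 11.4 in PROLIF replicates 1, 2 and 4 and of 6.87, 7.10 and 7.19 in the DIFF libraries. The groups did not overlap, and DIFF minus PROLIF was -0.75 ± 0.12 on the log2 scale (SE, n = 3 per state, limma, adjusted p = 0.000400), or 1.68 times higher in PROLIF. Its sequence above holds a SOX motif and no TEAD core. Region 20 (chr7:112841533-112842319), 2.50 kb downstream of another internal start site, had fold enrichments of 11.4, 8.38 and 10.7 in PROLIF and 6.26, 8.34 and 5.70 in DIFF. Its lowest PROLIF value was just above its highest DIFF value. The difference was -0.53 ± 0.16 (limma, adjusted p = 0.0290), and it missed the threshold when any library other than PROLIF replicate 2 or DIFF replicate 2 was left out (adjusted p from 0.0549 to 0.132).

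Close to region 10, region 11 of *Tead1* (chr7:112762678-112763821, in an intron) had a peak in the DIFF libraries alone, with fold enrichments of 3.46, 6.35 and 3.94. Further downstream, region 13 (chr7:112781925-112782299, in an intron) had a peak in PROLIF alone, at 7.30, 6.09 and 3.12. The last of these ranked at percentile 3.69 of its own list, so that it was near the limit of detection. The region at the 5′ end, region 5 (chr7:112678764-112680169), had fold enrichments of 7.40, 9.11 and 5.87 in PROLIF and 9.13, 6.87 and 7.39 in DIFF, and the groups overlapped (difference 0.14 ± 0.19, adjusted p = 0.698). The strongest peak within 3 kb of any *Tead1* start site was that of region 10 in every PROLIF library and that of region 5 in every DIFF library. Of the other promoter regions of *Tead1*, regions 4 and 19 had a peak in 1 DIFF library, region 9 in 2 DIFF libraries and region 6 in 2 libraries of each state.

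*Tead2* (ENSMUSG00000030796.17, chr7:45215753-45233644, plus strand) lies among many genes, and 7 of its 8 regions were nearest to the start of another gene. Its promoter, region 5 (chr7:45215604-45217084), had fold enrichments of 12.1, 9.48 and 7.45 in PROLIF and 7.85, 7.77 and 7.32 in DIFF. The range of the DIFF libraries reached into that of the PROLIF libraries, and the difference was -0.27 ± 0.14 (limma, adjusted p = 0.225). Region 2 (chr7:45182142-45182817), 33.4 kb upstream and nearest to *Pth2*, was higher in DIFF, at 9.44, 10.5 and 11.4 against 8.81, 7.32 and 6.73. Its groups did not overlap, with a difference of 0.51 ± 0.13 (adjusted p = 0.0115), which missed the threshold without DIFF replicate 4 (0.44, adjusted p = 0.0925). Region 8 (chr7:45277423-45277671), in *Slc6a21*, had weak peaks in PROLIF alone, at 4.03, 4.06 and 3.12, and holds an AP-1 motif. Region 6 (chr7:45235058-45235888), in *Cd37* near the 3′ end of *Tead2*, had a peak in 2 PROLIF and 3 DIFF libraries.

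*Tead3* (ENSMUSG00000002249.21, chr17:28331671-28350817, minus strand) had a single region past the test, in an intron. Region 6 (chr17:28341031-28341519), 4.70 kb upstream of the nearest start site, had fold enrichments of 6.07, 5.84 and 4.77 in PROLIF and 8.13, 12.0 and 10.2 in DIFF. Every DIFF library was above every PROLIF library, and the difference was 0.91 ± 0.16 (limma, adjusted p = 0.000623), or 1.88 times higher in DIFF. The sequence of this region, above, had a GC content of 71.1% and no match to the motifs searched. The promoter, region 7 (chr17:28349942-28351323), had 6.18, 5.97 and 4.06 in PROLIF and 4.49, 6.65 and 6.34 in DIFF, with overlapping groups (0.20 ± 0.20, adjusted p = 0.548). Of the 9 regions, 7 were nearest to the start of another gene, among them *Rpl10a*, *Fance* and *Ppard*.

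*Tead4* (ENSMUSG00000030353.15, chr6:128224288-128300823, minus strand) had 9 shared regions among 16, and none passed the test or was found in 1 state alone. Its promoter, region 10 (chr6:128300024-128301050), had fold enrichments of 7.31, 5.84 and 4.74 in PROLIF and 4.06, 6.04 and 4.44 in DIFF (difference -0.23 ± 0.19, adjusted p = 0.460). The region nearest to the threshold was region 8 (chr6:128282119-128282733), in an intron, at 13.0, 12.5 and 9.50 in PROLIF and 12.5, 15.1 and 14.1 in DIFF. Its raw fold enrichments overlapped, while the normalised values did not (0.28 ± 0.10, adjusted p = 0.0636). Region 9 (chr6:128296087-128296590), in an intron, had a peak in 3 DIFF libraries, at 5.32, 7.19 and 7.26, and in 1 PROLIF library, at 3.05. The highest percentile in any library among the 112 regions was that of region 2 in this window (chr6:128200096-128201254), downstream of *Tead4* and nearest to *Tspan9*. Its percentile was 96.8 to 99.1 in the 6 libraries, and region 5 of *Amotl2* ranked above it in PROLIF replicate 4, DIFF replicate 1 and DIFF replicate 2. It had a difference of 0.12 ± 0.09 (adjusted p = 0.404).

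*Yap1* (ENSMUSG00000053110.13, chr9:7931999-8004596, minus strand), which encodes YAP, differed between the states at an internal region and by less than the error at its promoter. Region 15 (chr9:8003345-8005176), 1832 bp wide, had fold enrichments of 11.4, 9.32 and 9.25 in PROLIF and 9.11, 10.1 and 10.6 in DIFF. The groups overlapped, and the difference was 0.04 ± 0.12 (limma, adjusted p = 0.880). Region 10 (chr9:7968298-7969110), 2.90 kb upstream of a start site inside the gene, had 5.29, 6.09 and 4.94 in PROLIF and 6.69, 8.91 and 7.88 in DIFF. It was higher in each DIFF library, by 0.58 ± 0.18 (adjusted p = 0.0319), and it missed the threshold when any library other than PROLIF replicate 2 was left out (adjusted p from 0.0512 to 0.113). The 2 neighbouring intron regions, 8 and 9, differed by 0.30 ± 0.17 and 0.22 ± 0.15 and did not pass the test (adjusted p = 0.250 and 0.395).

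*Wwtr1* (ENSMUSG00000027803.14, chr3:57455649-57575910, minus strand), which encodes TAZ, had 5 shared regions among 11, and none passed the test. Its promoter, region 10 (chr3:57574898-57576817), was the widest among the promoter regions of the 8 genes, at 1920 bp. It had fold enrichments of 11.0, 9.25 and 9.39 in PROLIF and 9.22, 11.0 and 10.3 in DIFF, with overlapping groups (0.08 ± 0.11, adjusted p = 0.704). The values of *Yap1* and *Wwtr1* at their promoters thus covered nearly the same range in both states. Region 9 of *Wwtr1* (chr3:57542978-57543272), in an intron, had peaks in PROLIF alone, at 3.78, 3.55 and 4.42, and holds a SOX motif. Region 7 (chr3:57511823-57512662), in an intron, varied most within a state, from 3.64 to 11.3 in PROLIF against 6.69 to 8.34 in DIFF (0.50 ± 0.25, adjusted p = 0.209).

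*Amotl2* (ENSMUSG00000032531.15, chr9:102716672-102733418, plus strand) had the strongest promoter peaks of the 8 genes. They were in region 5 (chr9:102723801-102724569), 1.68 kb downstream of an internal start site, with fold enrichments of 14.4, 12.6 and 12.5 in PROLIF and 10.9, 13.5 and 12.0 in DIFF and percentiles of 97.1 to 98.7. The difference there was -0.10 ± 0.09 (limma, adjusted p = 0.529). Region 4 (chr9:102717167-102718831), at the 5′ start sites, had 10.3, 7.65 and 8.25 in PROLIF and 8.76, 10.4 and 9.93 in DIFF (0.21 ± 0.13, adjusted p = 0.305). Region 6 (chr9:102726256-102726665) differed by 0.18 ± 0.19 (adjusted p = 0.574), and region 7 had a peak in 1 DIFF library.

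Away from the promoter, region 1 of *Amotl2* (chr9:102687911-102688385), 28.5 kb upstream, was higher in PROLIF, at 6.62, 5.21 and 5.71 against 2.98, 3.73 and 3.85 in DIFF. The groups did not overlap and the difference was -0.67 ± 0.19 (limma, adjusted p = 0.0197). It missed the threshold without PROLIF replicate 4, DIFF replicate 1 or DIFF replicate 2 (adjusted p = 0.0505, 0.122 and 0.0777). Region 2, 26.5 kb upstream and so its neighbour, went the other way without passing the test (0.34 ± 0.19, adjusted p = 0.247). Region 8 (chr9:102766907-102767018), 36.2 kb from the nearest start site on the downstream side, had weak peaks in DIFF alone, at 3.24, 4.30 and 2.71.

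*Lats2* (ENSMUSG00000021959.16, chr14:57689662-57758388, minus strand) had 2 regions higher in DIFF and 1 region found in DIFF alone. Region 5 (chr14:57701935-57702316), 2.18 kb upstream of a start site inside the gene, had fold enrichments of 5.79, 4.82 and 2.86 in PROLIF and 8.88, 10.0 and 6.99 in DIFF. The peak in PROLIF replicate 4 held 10 reads at its summit and ranked at percentile 0.701 of its list, near the limit of detection. All DIFF values were above all PROLIF values, and the difference was 1.11 ± 0.22 (limma, adjusted p = 0.00176), or 2.16 times higher in DIFF, and 0.83 without PROLIF replicate 4 (adjusted p = 0.00802). Region 8 (chr14:57730055-57730898), in an intron, had 5.04, 5.84 and 4.42 in PROLIF and 5.83, 8.68 and 7.79 in DIFF (0.60 ± 0.19, adjusted p = 0.0358). It passed the test without PROLIF replicate 2 and without DIFF replicate 1, and missed it when any of the other 4 libraries was left out (adjusted p from 0.0846 to 0.138). Region 12 (chr14:57760469-57761047), 2.30 kb upstream of the 5′ end, had peaks in DIFF alone, at 4.53, 5.81 and 4.56, and holds a TEAD core.

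The strongest promoter region of *Lats2*, region 10 (chr14:57745355-57746702), lay at a start site inside the gene and not at its 5′ end. It had fold enrichments of 13.4, 11.0 and 6.03 in PROLIF and 9.04, 9.62 and 9.58 in DIFF. The DIFF libraries lay within the range of the PROLIF libraries, with a difference of -0.01 ± 0.16 (limma, adjusted p = 0.982). Nearer to the 5′ end, region 11, in an intron, had a peak in 1 PROLIF and 3 DIFF libraries. Region 9 (chr14:57736222-57736849), 2.12 kb upstream of an internal start site, had 11.8, 7.87 and 4.42 in PROLIF and a weak peak of 3.03 in DIFF replicate 2 alone, and it was not tested for this reason. It was the region near a start site of these genes with the longer TEAD motif. The annotation places 10 of the 13 regions also within another gene, most of them in *Gm49361*, which overlaps *Lats2*, and the peaks cannot be assigned to either gene.

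**Figure D3:**
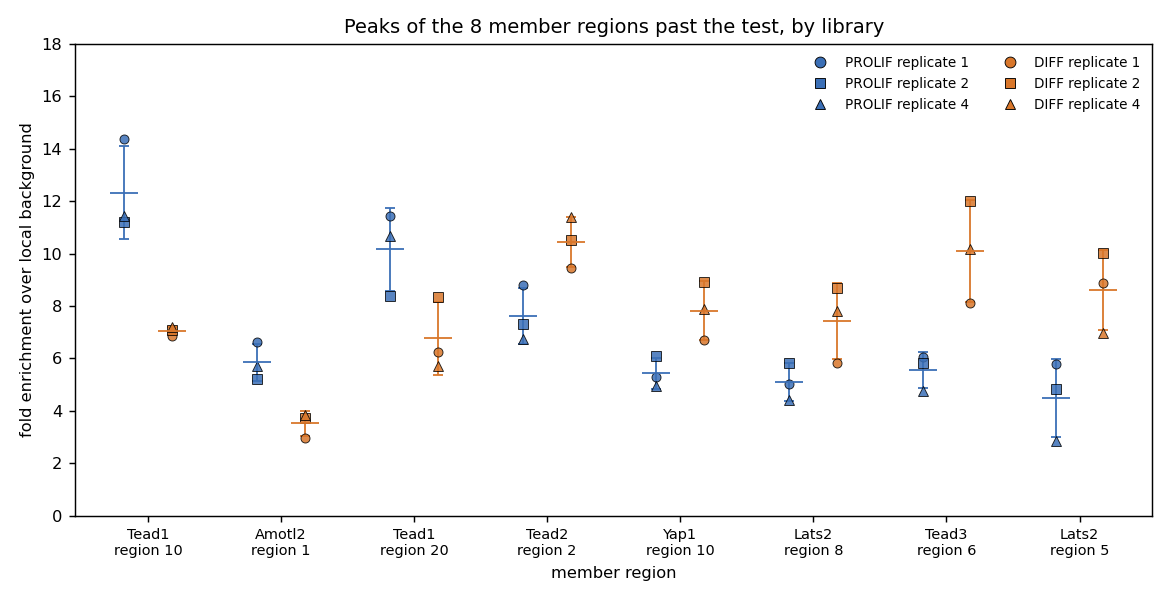
Fold enrichment over local background in each library for the 8 regions past the test, ordered by their difference between states, with PROLIF in blue and DIFF in orange and symbols for replicates 1, 2 and 4. Horizontal bars are means and whiskers are SD (n = 3). Region 10 of *Tead1*, on the left, runs from 11.2 to 14.4 in PROLIF and from 6.87 to 7.19 in DIFF, and region 5 of *Lats2*, on the right, from 2.86 to 5.79 and from 6.99 to 10.0.

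The rank of the strongest peak within 3 kb of a start site gave the order of the promoters within each library. *Amotl2* stood above the other 7 genes in all 6 libraries, at percentiles 97.1 to 98.7. Its place rests on the 3 kb distance, since these peaks were those of region 5, 1.68 kb from an internal start site. Region 4, at the 5′ start sites of *Amotl2*, ranked at 82.6 to 93.3 and overlapped *Wwtr1* and *Yap1*. *Wwtr1* and *Yap1* followed, at 88.9 to 93.5 and 89.5 to 95.1, and overlapped each other. *Lats2* (58.3 to 86.9), *Tead1* (68.3 to 88.2) and *Tead2* (68.4 to 84.2) overlapped, and *Tead3* (37.7 to 75.7) and *Tead4* (41.4 to 64.9) were lowest and overlapped as well. Each of the 8 genes also had a peak within 1 kb of a start site in every library, but the order was not worked out at that distance.

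**Figure D4:**
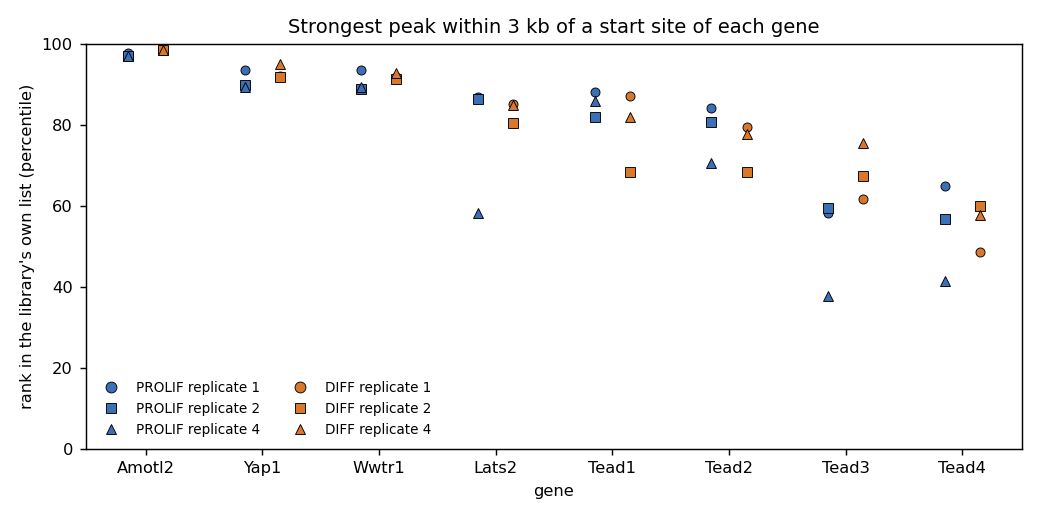
Percentile of the strongest peak within 3 kb of a start site of each gene in the library's own list, where 100 is the strongest, for PROLIF (blue) and DIFF (orange) libraries with symbols for replicates 1, 2 and 4. Genes are ordered by their median. *Amotl2* lies at 97.1 to 98.7 and *Tead4* at 41.4 to 64.9.

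The number of peaks in the windows, as peaks per 10000 in the library's list, was 11.3 ± 0.866 in PROLIF and 11.3 ± 0.368 in DIFF (SD, n = 3) for the 8 genes together, and the groups overlapped. At *Tead1* it was 2.25 to 2.66 in PROLIF and 2.73 to 2.83 in DIFF, and at *Amotl2* it was 0.725 to 1.00 and 1.02 to 1.26. For these 2 genes the DIFF libraries were all above the PROLIF libraries (exact permutation test, two-sided, p = 0.1, the smallest that 3 against 3 libraries can give), which was also the case for 9.45% of 20645 protein-coding genes. For the other 6 genes the groups overlapped. None of the 8 genes had all PROLIF libraries above all DIFF libraries, against 9.64% of those genes. The separation at *Tead1* rests on the scaling to list length. Its unscaled numbers overlapped, at 22, 15 and 15 peaks in PROLIF and 20, 20 and 24 in DIFF. Those of *Amotl2* did not, at 6, 6 and 6 in PROLIF and 9, 8 and 9 in DIFF.

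Motifs were counted within 100 bp of the summits. The longer TEAD motif was found in 4 of the 112 regions (3.57%, against 1.54% of all regions), in regions 2, 3 and 17 of *Tead1* and region 9 of *Lats2*. Its core GGAATG was found in 20 (17.9%, against 14.0%), which include every one of those 4, since the longer motif holds the core on the other strand. The promoters of *Tead1*, *Tead3*, *Tead4*, *Yap1* and *Lats2* held the core. Within 50 bp of the summit, the shares in the 112 regions and in all regions were 0.893% and 0.857% for the longer motif and 8.93% and 7.82% for the core. The AP-1 motif was found in 6 regions (5.36%, against 5.76%, and within 50 bp 0.893% against 3.42%) and a SOX motif in 32 (28.6%, against 29.2%). Of the 8 regions past the test, region 20 of *Tead1* held the TEAD core, region 10 of *Tead1* and region 5 of *Lats2* held a SOX motif, and none held the AP-1 motif. Within 50 bp, only the match in region 5 of *Lats2* remained. Over all regions higher in PROLIF, the core was in 17.1%, a SOX motif in 39.0% and the AP-1 motif in 16.4%. Over all regions higher in DIFF, the shares were 15.4%, 28.7% and 1.84%. A motif match is a run of letters and was not tested as a binding site.

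The other genes of the pathway were covered by a list of 24 upstream kinases, scaffolds and cofactors, all of which had regions, 301 in all. Of these, 127 were shared by all 6 libraries, 6 were higher in DIFF (4.72%, against 6.92% of all tested) and 4 in PROLIF (3.15%, against 8.9%), while 8 of the 301 were found in PROLIF alone (2.66%, against 1.79% of all regions) and 8 in DIFF alone (2.66%, against 3.48%). The genes with most such regions were *Limd1*, *Nf2*, *Wwc1* and *Taok3*, with 3 each. At *Limd1*, which encodes a LIM protein that restrains LATS kinases, a region 5.09 kb upstream had fold enrichments of 12.7, 13.5 and 12.6 in PROLIF and 4.82, 5.67 and 3.94 in DIFF. No DIFF library came near the PROLIF libraries, and the difference was -1.37 ± 0.16 (limma, adjusted p = 2.18e-05). The *Limd1* promoter was higher in DIFF, at 8.87, 7.88 and 8.02 against 6.37, 5.52 and 5.04 (0.62 ± 0.17, adjusted p = 0.0166), as was a region 16.7 kb upstream that is nearest to *Lars2* (0.23 ± 0.05, adjusted p = 0.00275).

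At *Wwc1*, which encodes the scaffold KIBRA, an intron region had 17.1, 14.9 and 13.4 in PROLIF and 9.68, 10.7 and 9.01 in DIFF. The groups did not overlap (-0.60 ± 0.10, limma, adjusted p = 0.000372), and 2 further regions were found in DIFF alone. At *Taok3*, a kinase gene of the TAO family, 1 intron region was higher in DIFF (0.59 ± 0.19, adjusted p = 0.0420) and 2 were found in PROLIF alone. At *Nf2*, which encodes the membrane scaffold merlin, a region 45.8 kb upstream and nearest to *Thoc5* was higher in DIFF (0.38 ± 0.13, adjusted p = 0.0462), and 1 region each was found in PROLIF alone and in DIFF alone.

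A list of 20 genes known as targets of YAP and TAZ in other cells had 346 regions, with 114 shared by all 6 libraries. Of the shared regions, 9 were higher in DIFF (7.89%) and 10 in PROLIF (8.77%), shares close to those over all tested regions. Of the 346 regions, 12 were found in PROLIF alone (3.47%, against 1.79% of all regions) and 14 in DIFF alone (4.05%, against 3.48%). *Rbms3*, which encodes an RNA-binding protein, had the most regions of the list, 48, of which 15 were shared and 9 passed the test or were found in 1 state alone. Of these 9, 4 were higher in PROLIF, 2 were found in PROLIF alone and 3 in DIFF alone. Its largest difference was in an intron, where the fold enrichment was 16.9, 13.5 and 15.8 in PROLIF and 4.32, 3.03 and 3.99 in DIFF (-1.95 ± 0.18, limma, adjusted p = 3.06e-06). *Asap1*, which encodes a GTPase-activating protein for ARF, had 2 regions higher in PROLIF, with differences of -1.29 ± 0.18 and -0.76 ± 0.12 (limma, adjusted p = 0.000101 and 0.000247). Its promoter was higher in DIFF (0.53 ± 0.13, adjusted p = 0.00693), and 2 further regions were found in DIFF alone. *Lhfp* had 1 region higher in each state and 3 found in 1 state alone. *Ccn2* and *Ankrd1*, both classic targets, and *Nt5e* had no region past the test or found in 1 state alone. *Ccn1* had 1 region higher in DIFF, 31.6 kb upstream (0.44 ± 0.14, limma, adjusted p = 0.0424). Its raw fold enrichments overlapped, at 11.9, 9.90 and 5.98 in PROLIF and 11.0, 13.5 and 11.2 in DIFF. Over the 5 shared regions of *Ccn1*, the difference was positive in 2 and negative in 3.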

How the data were processed

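Peak lists from ATAC-seq of Srr2 del/del SEZ cultures, 3 PROLIF and 3 DIFF libraries grouped by the labels, were analysed. The authors trimmed reads with Cutadapt and Trimmomatic, mapped them with Bowtie2 to GRCm38, used Picard to mark duplicates and ran MACS2 on each library, with no model and an FDR of 0.05. Versions, read extension, transposase shift and blacklist are not given in the sources used here, and may shift the edges and the number of peaks. The deposited fold enrichment is a ratio of the pileup to its library's local background, the deposited −log10 p and q values are against that background, and the deposited score, 10 times the −log10 q without its decimals, was checked and not used further.

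The 8 genes and both gene lists were chosen with earlier results of these data known. Gene bodies and start sites were those of GENCODE M21 (GRCm38), not the release used by the study. Peaks on chromosomes 1 to 19, X and Y were merged at 1 bp of overlap, and each region took the strongest peak of a library. Percentiles are ranks of −log10 p within a list. Pileups in reads were solved from fold and p under the caller's Poisson model and came back whole (within 0.02 reads) for at least 99.9878% of peaks, with peaks of −log10 p of 250 or more left out. The background pileup is percentile 1 of the local backgrounds. Read totals were not used here. A further planned marker is not reported here.

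limma 3.58.1 (R 4.3.3) fitted the quantile-normalised log2 fold enrichment with a trend over 40102 regions, with Benjamini-Hochberg adjustment over all of them. Regions missing from any library were not tested. On simulated data of these 40102 regions, 96% of planted log2 changes of 1 and 100% of changes of 2 were recovered. The study describes separate cultures, which the labels do not trace to animals, so p-values measure the spread between these libraries.

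Named regions were the promoter regions of the 8 genes, every region of 1 state alone, every region past the test and the region with the highest percentile in any library, together with the genes of each list with most regions past the test or in 1 state alone. Others are described without having been named by this rule and were chosen after their values were seen. Alternatives were q of 0.01, lists cut to 60006 peaks, windows of 10 kb, a cover of 50%, promoters of 1 kb, motif windows of 50 bp, other scalings, each library left out and the replicate block. Python 3.11.15, pandas 2.3.3, numpy 2.4.6, scipy 1.17.1 and pysam 0.24.0 were used.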

Additional observations from a re-analysis of the deposited data

How the results depend on the processing

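Direction held for all 8 regions past the test in each of 95 repeats with another setting, and 74 of these stayed past the threshold. The repeats with the replicate block could not change direction, since the block leaves the difference as it was. All repeats also drew on these same libraries. *Tead1* region 10, *Tead3* region 6 and *Lats2* region 5 stayed past the threshold in every repeat run. Region 5 of *Lats2* could not be tested at a q of 0.01 for want of a peak in 1 library. Without normalisation 2 regions were higher in DIFF, and *Tead1* region 20, *Tead2* region 2, *Yap1* region 10 and *Lats2* region 8 missed the threshold. With each library left out, the number higher in DIFF ran from 2 to 6 and that higher in PROLIF from 1 to 3, the number found in DIFF alone from 3 to 8, and the difference in peaks per 10000, 0.0152 as reported, from -0.483 to 0.296. It was 0.597 with lists cut to equal length. With windows of 10 kb it was -0.12, and 35 regions were shared by all libraries because fewer regions were counted. With a cover of at least 50%, 29 regions were shared and 6 were found in DIFF alone. The GGAATG share was 8.93% within 50 bp, a window that holds fewer letters.

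Same-numbered libraries share a number that the labels do not tie to a culture. Deviations from the state means correlated at 0.0733, 0.122 and 0.105 for the same number (replicates 1, 2 and 4) and at -0.0914 to -0.00344 for different numbers. Each library thus correlated best with its own number, a hint from the data. The deviations within a state cancel out in every region, so a positive value for the same number brings lower values for the others by construction. The contrast between them is therefore no separate evidence of pairing. With the replicate block, 5 regions were higher in DIFF and 4 in PROLIF, and 16 and 6 regions were present in DIFF or PROLIF in at least 2 of 3 pairs and the reverse in none, a looser rule. The causes of these shifts were not tested. Whether depth set which weak peaks were listed was not tested.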
